A study of Arabidopsis thaliana with 9 samples.

Results

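Dark-induced and senescence genes are the transcripts a leaf accumulates when it runs short of light and sugar or when it ages. In the background to this family, darkness and sugar shortage activate the energy-sensing kinase SnRK1 and its bZIP partners, which turn on genes for recycling amino acids, sugars and cell wall polymers, while ageing acts through NAC and WRKY transcription factors that start chlorophyll breakdown and nutrient export. In rosette leaves many of these genes are also known to vary over the day, because light, sugar supply and the circadian clock all act on them.

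The 10 genes described here were taken by their locus identifiers from 33602 loci measured in each library. They are SEN1, DIN10, ASN1, DIN4, DIN2, WRKY6, ORE1, SAG13, NAP and SGR1, and all 10 were found. They were picked by name with earlier results of these libraries in view, so their values in all groups are given as a description. Counts of members called by the fit over all loci describe them too, and support nothing by themselves. All 10 were detected in at least 1 library, but the late senescence marker SAG12, a cysteine protease of old leaves, had 2 counts in 1 wild-type library and 0 in the other 8.

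Leaves 4 to 5 weeks old came from second-generation homozygous ddm1 plants, from F1 plants of a Col-0 by ddm1 cross (DDM1/ddm1, 1 mutant copy), and from wild-type Col-0, with 3 libraries per group that the labels call independent biological replicates. DDM1 is a chromatin remodelling ATPase that keeps transposons methylated and silent, and the study compared transposon expression between the 3 genotypes. The sources used here do not name the ddm1 allele, the number of plants per library, the growth batches or the time of day at harvest. RNA was depleted of ribosomal RNA and read as single 50 bp ends.

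Library totals ran from 15996806 to 22425699 estimated counts, of which 5212809 to 7574828 fell on nuclear loci. Organelle loci took 66.2% to 67.9% of the counts in ddm1, 70.6% to 72.8% in F1 and 64.7% to 68.9% in wild type, and leaving them out of the fit changed no count of called genes in the pathway lists below. The DDM1 transcript (AT5G66750) had 1, 2 and 2 counts in ddm1, 2, 0 and 8 in F1 and 3, 12 and 5 in wild type, too few to check the genotypes. The leaf marker genes RBCS1A, LHCB1.1, RCA, CA1 and LHCA1 were detected in every library, and the seed markers CRA1, SESA3 and OLEO1 were at 0 in all 9. Levels below are CPM, counts scaled to library size with TMM factors, unless they are given as TPM, which also corrects for transcript length. In bulk leaf RNA, fewer cells of a type and less RNA per cell cannot be told apart.

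The F1 leaves held far more SEN1, DIN10 and DIN4 RNA than the leaves of either other group, while NAP, SGR1 and SAG13 overlapped between all 3 groups. Of the 9 members with enough counts for the fit, 4 were called higher in F1 than in wild type (SEN1, DIN10, DIN4 and WRKY6), where 13.5% of all 18216 tested loci were called higher and 23.2% in either direction (edgeR's quasi-likelihood test, adjusted p under 0.05). No member was called in ddm1 against wild type, where 6.87% of tested loci were called higher and 0.5% lower, and 3 members had an unadjusted p under 0.05 (0 called by DESeq2). In ddm1 against F1, 6 members were called lower (the same 4 with ASN1 and ORE1), where 6.21% of loci were called lower. These contrasts were among those the genes were chosen from, so the counts only describe them. The comparisons of ddm1 and of F1 with wild type share the wild-type libraries, and the comparison of ddm1 with F1 shares libraries with each.

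**Figure D1:**
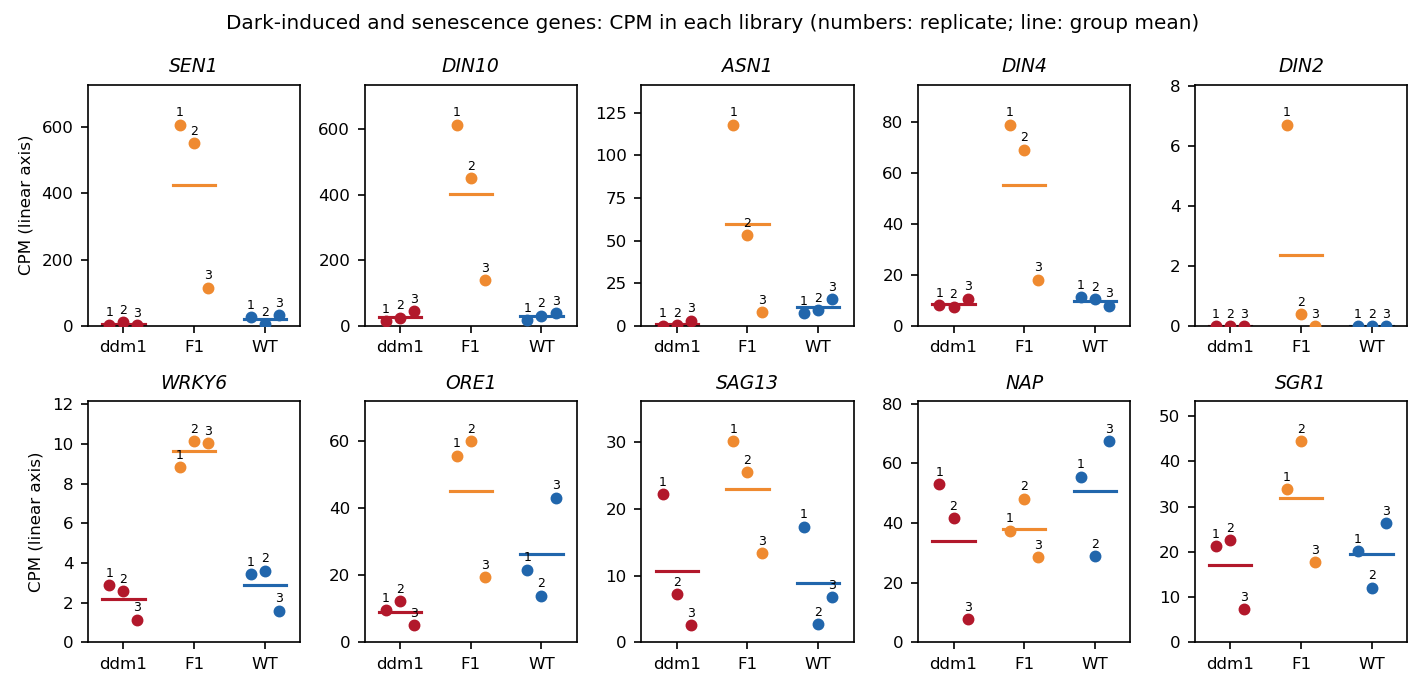
Levels of the 10 genes in CPM on linear axes in the 3 libraries each of ddm1, F1 and WT (wild type), with the replicate number above each point and the group mean as a line. F1 libraries 1 and 2 carried the highest SEN1, DIN10, ASN1 and DIN4 levels, F1 library 3 was lower in all 4, and the groups overlapped for SAG13, NAP and SGR1.

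Promoter windows of 4 genes are printed because their genes span the patterns seen: SEN1 and DIN10 were highest in F1, ASN1 was high in F1 and lowest in ddm1, and NAP was no higher in F1 than in wild type. Each is the 250 bases before the annotated gene start, read 5′ to 3′ on the gene's strand from the RefSeq TAIR10.1 assembly, whose nuclear chromosomes have the coordinates of TAIR10. SEN1 lies at chr4:16944628-16944877 on the plus strand, DIN10 at chr5:6833314-6833563 (plus), ASN1 at chr3:17441432-17441681 (minus) and NAP at chr1:26121830-26122079 (plus). Capitals mark the G-box CACGTG.
SEN1: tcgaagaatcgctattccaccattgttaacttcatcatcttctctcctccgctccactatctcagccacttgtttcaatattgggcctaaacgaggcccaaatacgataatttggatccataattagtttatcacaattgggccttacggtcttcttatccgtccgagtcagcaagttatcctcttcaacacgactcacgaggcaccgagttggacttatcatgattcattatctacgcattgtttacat
DIN10: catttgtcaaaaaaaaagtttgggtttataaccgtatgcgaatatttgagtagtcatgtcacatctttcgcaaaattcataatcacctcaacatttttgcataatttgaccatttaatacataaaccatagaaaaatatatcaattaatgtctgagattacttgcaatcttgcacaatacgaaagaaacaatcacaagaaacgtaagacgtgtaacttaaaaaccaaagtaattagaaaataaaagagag
ASN1: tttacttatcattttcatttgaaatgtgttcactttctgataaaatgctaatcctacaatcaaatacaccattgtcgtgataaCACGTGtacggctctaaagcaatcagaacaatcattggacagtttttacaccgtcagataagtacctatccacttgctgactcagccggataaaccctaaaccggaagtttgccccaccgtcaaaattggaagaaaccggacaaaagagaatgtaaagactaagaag
NAP: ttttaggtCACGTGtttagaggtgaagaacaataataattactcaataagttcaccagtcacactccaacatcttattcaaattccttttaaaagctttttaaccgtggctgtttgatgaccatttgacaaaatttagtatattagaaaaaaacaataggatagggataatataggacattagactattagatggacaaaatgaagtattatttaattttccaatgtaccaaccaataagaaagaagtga

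The G-box, a site that bZIP and PIF factors are known to bind, was in 2 of the 10 promoters, ASN1 and NAP, and in 6.49% of 27443 nuclear protein-coding promoters of the same length. The W-box core TTGAC, known to be bound by WRKY factors, was in 6 of the 10 and in 44.9% of all promoters. TATCCA, a motif known from sugar-starved cereal cells, was in the ASN1 promoter alone and in 13.6% of all. The evening element AAATATCT, a clock motif, was in 0 of the 10 and in 4.79% of all. Both strands were searched, the 4 motifs share no letters at any of these places, and a match describes letters, not binding.

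SEN1 (AT4G35770, chr4:16944878-16946266) encodes a rhodanese-like protein and is a classic marker of darkness and senescence. It stood at 4.07, 10.6 and 2.90 CPM in ddm1, at 607, 553 and 115 CPM in F1, and at 25.8, 5.89 and 32.4 CPM in wild type. Every F1 library was above every library of the other groups, the lowest F1 library by 3.57 times over the highest wild-type one, while ddm1 and wild type overlapped. The fitted log2 fold change was 4.32 (SE 0.86) in F1 and -1.86 (SE 0.79) in ddm1 against wild type, and -6.18 (SE 0.95) in ddm1 against F1.

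DIN10 (AT5G20250, chr5:6833564-6836862), a protein of the raffinose synthase family, reached 14.7, 25.4 and 44.1 CPM in ddm1, 613, 450 and 140 CPM in F1, and 18.2, 31.2 and 38.5 CPM in wild type. The F1 libraries again lay above all others, and the ddm1 libraries spanned the wild-type range. Its log2 fold change was 3.77 (SE 0.63) in F1 and -0.06 (SE 0.56) in ddm1 against wild type, and -3.84 (SE 0.63) in ddm1 against F1. A locus that overlaps its span, AT5G20260, had 0 counts in all 9 libraries.

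ASN1 (AT3G47340, chr3:17437840-17441431) makes asparagine from glutamine, the form in which a starved leaf is known to move nitrogen. Its levels were 0.0839, 0.457 and 3.10 CPM in ddm1, 118, 53.2 and 8.19 CPM in F1, and 7.49, 9.04 and 15.9 CPM in wild type. All ddm1 libraries were below all wild-type and all F1 libraries, whereas F1 library 3 lay within the wild-type range. The ddm1 value rested on few reads, with 2, 8 and 46 counts in the 3 libraries. The log2 fold change was 2.47 (SE 1.03) in F1 and -3.23 (SE 1.14) in ddm1 against wild type, and -5.70 (SE 1.24) in ddm1 against F1. Without ddm1 library 3 the log2 fold change of ddm1 against wild type was -5.40, and there ASN1 was called lower, unlike in the fit of all 9 libraries. The call against F1 was lost without F1 library 1 or ddm1 library 2.

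DIN4 (AT3G13450, chr3:4382198-4384436) is the E1 beta subunit of the mitochondrial complex that degrades branched-chain keto acids. It measured 8.05, 7.54 and 10.7 CPM in ddm1, 78.9, 69.1 and 18.1 CPM in F1, and 11.3, 10.4 and 7.93 CPM in wild type. F1 was above both other groups in every library, and ddm1 and wild type overlapped. Its log2 fold change was 2.49 (SE 0.48) in F1 and -0.17 (SE 0.46) in ddm1 against wild type, and -2.66 (SE 0.48) in ddm1 against F1. The overlapping locus AT3G13445 took 1245 counts over the 9 libraries, and the sources used here do not say whether counting used strand.

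DIN2 (AT3G60140, chr3:22216540-22220824), the beta-glucosidase BGLU30, was the 1 member under the count filter and was not fitted. It had 116, 7 and 0 counts in the F1 libraries and 0 counts in all ddm1 and all wild-type libraries. Taking 3 counts summed over a group as the least detectable level, its F1 mean was at least 44.3-fold higher than in ddm1 and at least 51.6-fold higher than in wild type. These reads came nearly all from F1 library 1, so the value describes that library more than the group.

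**Figure D2:**
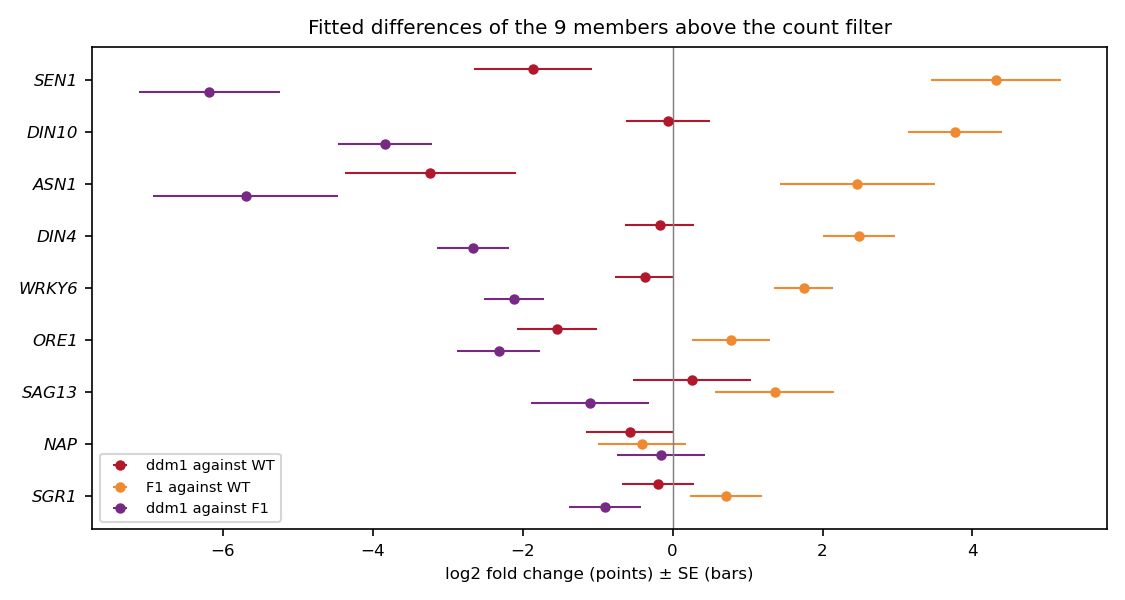
Fitted log2 fold changes (points) with their SE (bars) for the 9 members above the count filter, in ddm1 against WT, F1 against WT and ddm1 against F1. SEN1, DIN10, ASN1, DIN4 and WRKY6 lay at 1.75 or more in F1 against wild type, and NAP lay within 0.57 of 0 in all 3 comparisons.

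The members that act as transcription factors split into patterns of their own. WRKY6 (AT1G62300, chr1:23016569-23019494), a factor induced in senescence and defence, was at 2.89, 2.57 and 1.15 CPM in ddm1, 8.84, 10.14 and 10.04 CPM in F1, and 3.45, 3.62 and 1.59 CPM in wild type. It was the most even of the raised members, since the 3 F1 libraries differed little and library 3 was as high as the others. Its log2 fold change was 1.75 (SE 0.39) in F1 and -0.37 (SE 0.40) in ddm1 against wild type, and -2.12 (SE 0.40) in ddm1 against F1.

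ORE1 (AT5G39610, chr5:15858398-15859911), a NAC factor that promotes leaf ageing, was at 9.60, 12.2 and 5.13 CPM in ddm1, 55.6, 59.9 and 19.5 CPM in F1, and 21.6, 14.0 and 43.1 CPM in wild type. The ddm1 libraries were below all others, and F1 and wild type overlapped because wild-type library 3 was high and F1 library 3 low. The log2 fold change was 0.78 (SE 0.52) in F1 and -1.54 (SE 0.54) in ddm1 against wild type, and -2.32 (SE 0.55) in ddm1 against F1. That last call was lost without F1 library 1 or 2 or without any 1 of the ddm1 libraries.

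NAP (AT1G69490, chr1:26122080-26123514), a NAC factor that links ageing to abscisic acid and chlorophyll loss, was at 53.0, 41.6 and 7.83 CPM in ddm1, 37.5, 48.2 and 28.5 CPM in F1, and 55.6, 29.0 and 67.4 CPM in wild type. All 3 groups overlapped, and ddm1 library 3 stood lowest by a wide margin. Its log2 fold change was -0.41 (SE 0.59) in F1 and -0.57 (SE 0.59) in ddm1 against wild type, and -0.15 (SE 0.59) in ddm1 against F1. NAP was the 1 fitted member whose F1 estimate was below wild type.

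SGR1 (AT4G22920, chr4:12016420-12018643) removes magnesium from chlorophyll a, the step that commits it to breakdown. It was at 21.3, 22.6 and 7.36 CPM in ddm1, 33.9, 44.5 and 17.7 CPM in F1, and 20.2, 12.1 and 26.4 CPM in wild type, with overlap between all groups. The log2 fold change was 0.71 (SE 0.48) in F1 and -0.20 (SE 0.48) in ddm1 against wild type, and -0.90 (SE 0.48) in ddm1 against F1. SAG13 (AT2G29350, chr2:12600914-12602556), a short-chain dehydrogenase raised early in senescence, was at 22.2, 7.19 and 2.56 CPM in ddm1, 30.2, 25.6 and 13.4 CPM in F1, and 17.4, 2.78 and 6.76 CPM in wild type. Its groups overlapped as well, with log2 fold changes of 1.36 (SE 0.79) in F1 and 0.26 (SE 0.78) in ddm1 against wild type, and -1.10 (SE 0.79) in ddm1 against F1.

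Counted by separation, 4 of the 9 fitted members had every F1 library above every wild-type library, as had 25.6% of tested loci, and 0 had every F1 library below (17.3% of loci). In ddm1 against F1, 6 had every ddm1 library below every F1 library (18.7% of loci), and in ddm1 against wild type 2 did, ASN1 and ORE1 (5.6% of loci). The median log2 fold change of the 9 was 1.75 in F1 against wild type, beside 0.12 over all tested loci. It was -0.37 in ddm1 against wild type, beside 0.03, and -2.32 in ddm1 against F1, beside 0.01.

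Per length, the order of the genes by group mean also differed between groups. The SDs are between libraries, and the order of the genes within each library was not compared. SEN1 had the highest mean in F1 at 506 ± 302 TPM (SD, n = 3), followed by DIN10 at 133 ± 75.2. Next came DIN4 at 39.9 ± 21.8, ORE1 at 38.1 ± 16.1 and NAP at 35.98 ± 5.34 TPM, with overlapping ranges of mean ± SD. NAP had the highest mean in ddm1 at 37.8 ± 27.1 TPM. The ranges of SGR1 (12.3 ± 6.40), DIN10 (10.6 ± 4.98), SAG13 (10.1 ± 10.2), ORE1 (8.92 ± 3.75), SEN1 (8.19 ± 5.78) and DIN4 (7.32 ± 1.08) overlapped there. In wild type NAP was at 59.0 ± 22.4 TPM, SEN1 at 32.0 ± 20.7 and ORE1 at 28.2 ± 16.7, again with overlapping ranges. WRKY6 at 1.23 ± 0.571 TPM in ddm1, 4.75 ± 0.738 in F1 and 1.72 ± 0.674 in wild type was a low-abundance transcript in all groups.

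Within F1, library 3 was below libraries 1 and 2 for every fitted member but WRKY6, by factors that differed between genes. Library 1 exceeded library 3 by 14.4 times for ASN1, 5.26 times for SEN1, 4.39 times for DIN10 and 4.37 times for DIN4. The ratio was 2.85 for ORE1, 2.25 for SAG13, 1.92 for SGR1, 1.31 for NAP (1.69 for library 2) and 0.881 for WRKY6. Over all genes, library 3 differed from libraries 1 and 2 by a chi-square per gene of 40.1 and 69.3, beside 20.4 between those 2. Such differences were no smaller in the other groups. Wild-type libraries differed by 57.5 to 139, and ddm1 library 3 from ddm1 libraries 1 and 2 by 71.1 and 70.7, beside 22.1 between those 2. Across the 9 libraries, log2 CPM of DIN10 and DIN4 correlated at r = 0.95, of SEN1 and ORE1 at 0.89 and of SEN1 and DIN10 at 0.89, whereas NAP correlated with DIN10 at -0.05 and with DIN4 at 0.04. These correlations describe 9 libraries in 3 genotypes, so they mix differences between the groups with differences among the libraries of a group.

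The loci whose profiles were most like the mean standardised profile of the 9 fitted members were sought among 9659 nuclear loci with a mean of at least 5 CPM. AT1G74320, AAE5 (an acyl-activating enzyme), FRA3, IVD, CNGC4 (an ion channel), AT1G10140, DELTA-OAT (ornithine aminotransferase), AAP4 (an amino acid permease), ALDH7B4 (an aldehyde dehydrogenase) and CIPK21 (a protein kinase) led, with r of 0.995 down to 0.977 over 9 libraries. A profile of this shape was common, since 445 of the loci had r over 0.9. Of the 10, DELTA-OAT averaged 18.6 ± 7.37 CPM in ddm1, 82.7 ± 36.5 in F1 and 24.4 ± 10.3 in wild type (SD, n = 3). The most alike, AT1G74320, averaged 7.45 ± 1.78, 16.4 ± 4.08 and 9.72 ± 1.47 CPM in turn. Log2 fold changes of the 10 in F1 against wild type ran from 0.53 (FRA3) to 3.42 (IVD). Not all were called there (FRA3, edgeR adjusted p = 0.139).

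The wider programme was read from 7 lists of related genes, none of them members, with 125 of 129 genes tested. Like the members, these lists were chosen with earlier results of these data known. Their shares of called genes are therefore a description, not an independent test. In F1 against wild type 39 were called higher and 6 lower, where 13.5% and 9.66% of all loci were. The median of each list but 1 (SnRK1 and bZIP genes, 0.07) was at least 0.57 on the log2 scale. The 45 calls became 21 without wild-type library 2, 29 without wild-type library 3, 22 without F1 library 1 and 25 without F1 library 2, and 51 without ddm1 library 3. In ddm1 against wild type 2 of the 125 were called, both lower, where 6.87% of all loci were called higher and 0.5% lower. In ddm1 against F1 4 were called higher and 39 lower, where 10.3% and 6.21% of all loci were. The same shares over all loci stand beside the counts of each list below. The 43 calls became 18 without F1 library 1 or 2, 22 to 27 without any 1 of the ddm1 libraries, and 55 without F1 library 3.

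**Figure D3:**
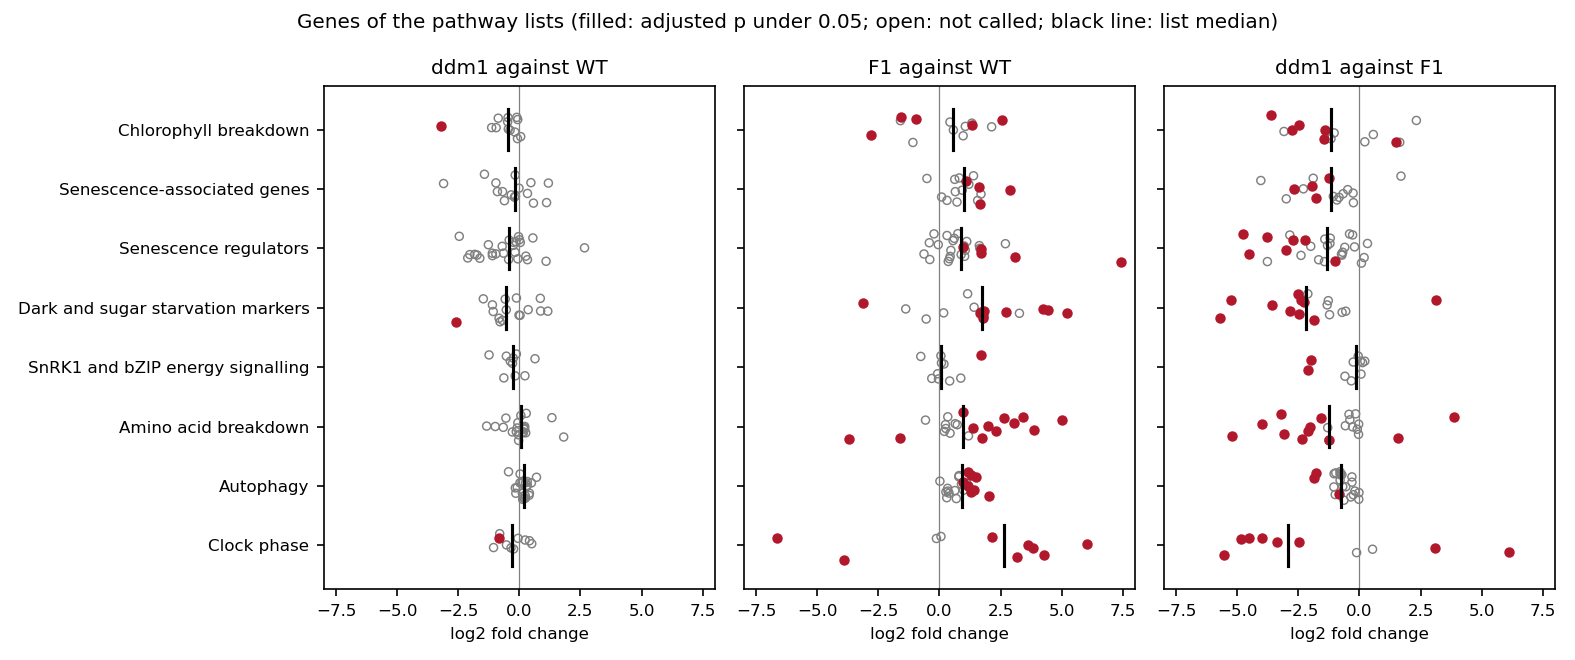
Log2 fold changes of the tested genes in 8 lists for ddm1 against WT, F1 against WT and ddm1 against F1. Filled red points were called (edgeR, adjusted p under 0.05), open grey points were not, and the black line is the list's median. Most calls sat in the comparisons with F1, while ddm1 against wild type had MES16, EXL1 and CCA1. In F1 against wild type the medians were 1.74 for dark and sugar starvation markers and 2.66 for clock genes.

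Markers of darkness and sugar starvation formed the list with the largest median shift among the 7 in F1, at 1.74, with 9 of 16 higher and 1 lower than in wild type. DRM2 and DRM1, dormancy-associated genes, were at 268 ± 51.7 and 160 ± 30.9 CPM in F1 against 7.15 ± 4.05 and 7.36 ± 3.54 in wild type (SD, n = 3; log2 fold changes 5.22, SE 0.63, and 4.44, SE 0.50; adjusted p = 0.000462 and 0.00029). Both kept their calls whichever library was left out. BGAL4, a cell wall beta-galactosidase, had 492, 552 and 69.2 CPM in F1 against 25.3, 4.22 and 29.2 CPM in wild type (log2 change 4.25 ± 0.91 SE, adjusted p = 0.0104), with F1 library 3 low as for SEN1. TPS5, a trehalose-phosphate synthase family gene, fell to 4.51 ± 2.63 CPM in F1, against 39.3 ± 9.91 in wild type (log2 change -3.11 ± 0.47 SE, adjusted p = 0.00171), while TPS9 and TPS10 were higher (edgeR adjusted p = 0.0449 and 0.0373). The TPS9 and TPS10 calls were each lost in 7 of the 9 fits with 1 library left out, all but those without F1 library 3 or ddm1 library 3 (adjusted p up to 0.164). Higher calls of the whole list numbered 4 or 5 without any 1 wild-type library or without F1 library 1 or 2. Against F1, ddm1 had 9 genes lower and 1 higher, TPS5. In ddm1 against wild type EXL1 alone was called, at 2.77 ± 2.39 against 16.9 ± 9.97 CPM (log2 change -2.60 ± 0.66 SE, adjusted p = 0.0431), and that call was lost in 7 of the 9 fits with 1 library left out, all but those without wild-type library 3 or ddm1 library 2 (adjusted p up to 0.192).

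The list of enzymes that break down amino acids, the pathway of DIN4, followed, and it also holds 2 asparagine synthetases, ASN2 and ASN3. In F1, 10 of the 21 genes were higher than in wild type and 2 lower, with a list median of 0.96. Both lower genes were those synthetases, so no breakdown enzyme of the list was called lower. LKR/SDH, the bifunctional enzyme of lysine breakdown, was at 292, 309 and 35.0 CPM in F1 against 27.0, 4.03 and 12.5 CPM in wild type (log2 change 3.87 ± 0.87 SE, adjusted p = 0.0129). BCAT2, a branched-chain aminotransferase, had 106, 63.9 and 32.1 CPM in F1 and 1.40, 0.928 and 3.90 CPM in wild type (log2 change 5.00 ± 1.01 SE, adjusted p = 0.00769). IVD, isovaleryl-CoA dehydrogenase of leucine breakdown, was at 102 ± 70.3 CPM in F1 and 9.57 ± 4.20 in wild type (log2 change 3.42 ± 0.75 SE, adjusted p = 0.0117; 0.0503 without wild-type library 2). The other higher genes were MCCA, MCCB, ETFQO, D2HGDH, ALDH6B2, PRODH1 and PRODH2.

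The lower genes of that list were the other asparagine synthetases, ASN2 and ASN3. ASN2 was at 0.462, 1.37 and 3.15 CPM in F1 against 21.3, 29.8 and 14.2 CPM in wild type (log2 change -3.68 ± 1.07 SE, adjusted p = 0.0355), opposite in direction to the F1 values of ASN1. In ddm1 it was at 4.53, 6.22 and 64.7 CPM, so that ddm1 library 3 was above and the other 2 below all wild-type libraries. The F1 call was lost without wild-type library 1 or 2 or F1 library 1 or 2 (adjusted p = 0.0715 to 0.117). Higher calls of the list numbered 5 without wild-type library 2, and 7 to 10 with any other library left out. Against F1, ddm1 had 9 lower and 2 higher, ASN2 and ASN3, and the lower calls numbered 4 to 6 without F1 library 1 or 2 or ddm1 library 1 or 2. The BCAT2 call in ddm1 against F1 (log2 fold change -3.19, adjusted p = 0.0437) was lost in 7 of 9 such fits, all but those without F1 library 3 or ddm1 library 3.

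Autophagy genes, which serve the recycling of proteins and organelles, were all on the higher side of wild type in F1, 22 of 22, of which 8 were called (median 0.93; 55.8% of all tested loci were on the higher side). NBR1, a receptor for ubiquitinated cargo, was at 474 ± 177 CPM in F1 and 118 ± 25.4 in wild type (SD, n = 3; log2 change 2.01 ± 0.33 SE, adjusted p = 0.00285), in every fit with a library left out. The ubiquitin-like genes ATG8D (4.90 ± 1.58 against 1.74 ± 0.174 CPM, adjusted p = 0.00816), ATG8B (10.7 ± 3.79 against 4.00 ± 1.45, adjusted p = 0.0317) and ATG8F (63.0 ± 21.8 against 25.8 ± 4.98, adjusted p = 0.0277) were higher too. The ATG8B and ATG8F calls were lost without wild-type library 1 or 2, F1 library 1 or 2 or 1 of the ddm1 libraries (library 1 for ATG8B, library 2 for ATG8F), and ATG8F also without wild-type library 3 (adjusted p = 0.0507 to 0.137). Called genes of the list numbered 2, 3, 3 and 2 without F1 library 1, F1 library 2, wild-type library 1 and wild-type library 2, and 5 without wild-type library 3 or ddm1 library 2. Against F1, ddm1 had 3 lower (1 without F1 library 1 or 2 or ddm1 library 1, and 5 without F1 library 3), and 0 were called in ddm1 against wild type (1 gene with an unadjusted p under 0.05, and 0 called by DESeq2).

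Genes of chlorophyll breakdown did not move one way. In F1 against wild type 2 of 13 were higher, NYC1 and HCAR, and 3 lower, ACD2, SGRL and TIC55, beside 13.5% and 9.66% of all tested loci. NYC1, which starts the conversion of chlorophyll b to a, was at 219, 313 and 75.7 CPM in F1 and 32.2, 30.5 and 38.8 CPM in wild type (log2 change 2.58 ± 0.44 SE, adjusted p = 0.00352). SGRL, a relative of SGR1, was at 3.24, 1.83 and 5.50 CPM in F1 and 21.7, 39.8 and 11.8 CPM in wild type (log2 change -2.78 ± 0.72 SE, adjusted p = 0.0231), a call lost without wild-type library 2 or F1 library 1 or 2 (adjusted p = 0.069 to 0.0853).

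MES16, an esterase acting on late chlorophyll products, was the list's 1 call in ddm1 against wild type, at 1.82 ± 0.641 against 16.5 ± 4.26 CPM (SD, n = 3; log2 change -3.19 ± 0.57 SE, adjusted p = 0.00595), and it kept the call whichever library was left out. It was also lower in ddm1 than in F1 (22.3 ± 15.4 CPM; log2 fold change -3.62, SE 0.58, adjusted p = 0.00598). CYP89A9, a cytochrome P450 of the same late steps, was at 38.1 ± 18.1 CPM in ddm1 and 210 ± 127 in F1 (log2 change -2.46 ± 0.61 SE, adjusted p = 0.0271), a call lost without F1 library 1 or 2 or any 1 ddm1 library. In all, ddm1 had 5 lower and 1 higher than F1, and 3 lower without F1 library 1 or 2 or any 1 ddm1 library.

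Among 27 regulators of senescence, 5 were called higher in F1 than in wild type (ANAC016, WRKY45, WRKY57, EIN3 and ABI5) and 0 lower, a share near the 13.5% of all tested loci called higher. ABI5, a bZIP factor of abscisic acid signalling, had 2, 0 and 0 counts in ddm1, 18, 21 and 22 in F1 and 0 in wild type, so that its F1 mean was at least 23.7-fold higher than in wild type with 3 counts over the group as the least detectable level (adjusted p = 0.00635, kept whichever library was left out). WRKY45 was at 8.78, 11.2 and 2.68 CPM in F1 and 1.65, 0.139 and 0.881 CPM in wild type (log2 change 3.08 ± 0.87 SE, adjusted p = 0.0317). That call was lost in 6 of 9 fits, without wild-type library 2 or 3, F1 library 1 or 2, or ddm1 library 1 or 2 (adjusted p up to 0.107). Without any 1 of F1 libraries 1 and 2, wild-type library 3 and ddm1 libraries 1 and 2, a single call remained in the list, 2 or 3 without wild-type library 2 or 1, and 8 without ddm1 library 3.

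In ddm1 against F1, 7 of these regulators were called lower, beside 6.21% of all tested loci. MYB2 was at 0.545, 0.286 and 0.0675 CPM in ddm1 and 8.78, 12.0 and 1.71 CPM in F1 (log2 change -4.53 ± 1.04 SE, adjusted p = 0.0213), and ANAC055, a NAC factor, at 1.75 ± 1.03 and 14.1 ± 8.60 CPM (log2 change -2.99 ± 0.80 SE, adjusted p = 0.0353). Both calls, and all 7 in the list, were lost without F1 library 1 or 2 or without ddm1 library 2, with 1 call left without ddm1 library 1 or 3, 3 without wild-type library 3, and 11 without F1 library 3. In ddm1 against wild type 0 regulators were called by edgeR, 2 were called lower by DESeq2, and 2 had an unadjusted p under 0.05 in edgeR.

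Of 20 further senescence-associated genes 16 could be tested, and SAG20, SAG21, ERD1 and GLN1;1 were higher in F1 than in wild type, where 13.5% of all tested loci were called higher. SAG21, a late embryogenesis abundant protein, was at 235 ± 65.1 CPM in F1 and 31.6 ± 12.1 in wild type (SD, n = 3; log2 change 2.89 ± 0.49 SE, adjusted p = 0.0034), a call kept whichever library was left out. ERD1, a regulatory subunit of the chloroplast Clp protease, was at 691 ± 213 and 228 ± 103 CPM (log2 change 1.60 ± 0.47 SE, adjusted p = 0.0356), and GLN1;1, a cytosolic glutamine synthetase, at 126 ± 26.8 and 40.2 ± 19.0 CPM (log2 change 1.64 ± 0.52 SE, adjusted p = 0.0493). Each of those 2 calls was lost in 7 of 9 fits, ERD1 in all but those without F1 library 3 or ddm1 library 3 and GLN1;1 in all but those without wild-type library 3 or ddm1 library 3 (adjusted p up to 0.183). Of the list, 1 was called without F1 library 1 or 2 or wild-type library 2, and 2 without wild-type library 1 or 3 or ddm1 library 1 or 2.

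Set against F1, ddm1 had 4 of the 16 lower, beside 6.21% of all tested loci. Among them was SAG113, a protein phosphatase of abscisic acid signalling, at 1.18 ± 0.637 CPM in ddm1 and 7.58 ± 6.04 in F1 (log2 change -2.66 ± 0.79 SE, edgeR adjusted p = 0.0484). The SAG113 call was lost in 6 of 9 fits, all but those without wild-type library 1 or 2 or F1 library 3 (adjusted p up to 0.186). None of the 4 calls was left without F1 library 1 or 2 or ddm1 library 2, 1 without ddm1 library 1, 2 without wild-type library 3 or ddm1 library 3, and 6 without F1 library 3. Against wild type, 0 of the 16 were called in ddm1 (edgeR, with 1 at an unadjusted p under 0.05, and 0 by DESeq2). SWEET15, BFN1 and MC9, like SAG12, were too scarce to test.

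The kinase and bZIP genes of energy signalling were mostly not called. In F1 against wild type 1 of 10 was called higher (13.5% of all tested loci), KINB1, a beta subunit of SnRK1, at 43.9 ± 17.8 CPM in F1 and 13.5 ± 3.90 in wild type (SD, n = 3; log2 change 1.70 ± 0.35 SE, adjusted p = 0.00817). In ddm1 against F1 2 were lower, KINB1 (11.1 ± 1.83 against 43.9 ± 17.8 CPM, adjusted p = 0.00847) and bZIP1, at 1.27 ± 0.469 against 5.52 ± 2.56 CPM (log2 change -2.12 ± 0.54 SE, adjusted p = 0.0305). The bZIP1 call was lost without F1 library 1 or 2 or any 1 ddm1 library (adjusted p = 0.0573 to 0.108). Of the 10, 0 were called in ddm1 against wild type, where 1 had an unadjusted p under 0.05 and DESeq2 called 0.

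The time-of-day genes moved with the same groups. Of 10 clock genes, 6 were higher in F1 than in wild type, the evening-phased TOC1, LUX, GI, ELF4, PRR5 and PRR3, and 2 were lower, the morning-phased CCA1 and LHY. Of all tested loci, 13.5% were called higher and 9.66% lower. TOC1 was at 102, 108 and 81.9 CPM in F1 against 5.24, 3.99 and 5.58 CPM in wild type (log2 change 4.30 ± 0.25 SE, adjusted p = 4.07e-06), and LHY at 0.636, 1.32 and 0.786 CPM against 88.2, 88.4 and 98.6 CPM (log2 change -6.64 ± 0.33 SE, adjusted p = 2.54e-06). LUX was at 19.99 ± 4.67 CPM in F1 and 0.306 ± 0.280 in wild type, and PRR5 at 11.0 ± 2.64 and 0.774 ± 0.623 CPM (adjusted p = 0.000904 and 0.00203). Of the 8 calls, 7 were kept whichever library was left out. The ELF4 call (2.54, 4.58 and 3.84 CPM in F1 against 0.1997, 0.0928 and 0.881 in wild type, adjusted p = 0.0291) was lost without wild-type library 1 or 2, any 1 F1 library or ddm1 library 1 (adjusted p = 0.0509 to 0.0918). F1 library 3, which was low for SEN1, DIN10, ASN1 and DIN4, was close to the other F1 libraries in TOC1, LHY and LUX. In ddm1 against wild type 1 clock gene was called, CCA1, lower at 30.8 ± 1.49 against 54.9 ± 8.44 CPM (adjusted p = 0.0188), a call lost without wild-type library 2 or 3 or ddm1 library 1 or 2 (adjusted p = 0.0571 to 0.0899). The part of harvest time in the F1 values of the dark-induced genes was not tested. It cannot be told apart from genotype here, since every F1 library differed from every wild-type library in TOC1 and LHY.

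**Figure D4:**
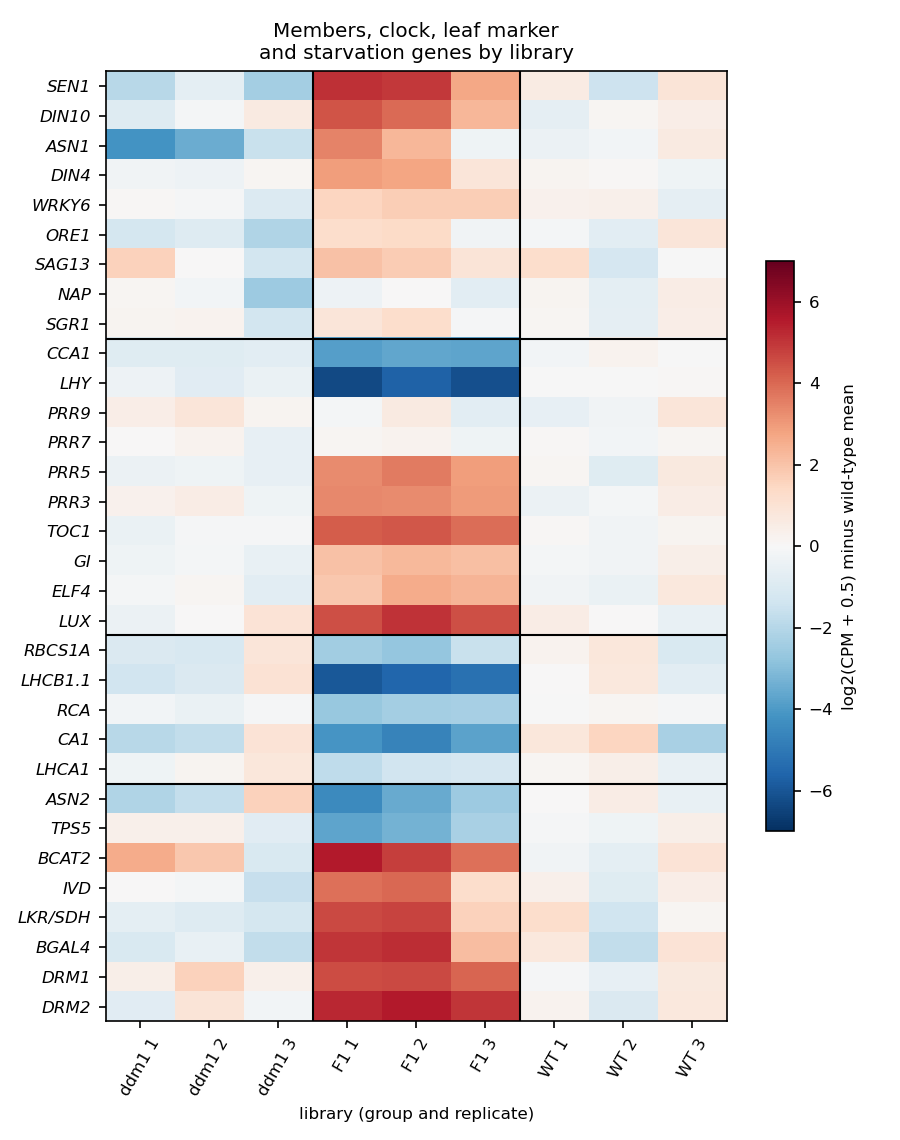
Log2(CPM + 0.5) minus the wild-type mean in each library (columns, ddm1, F1 and WT) for 9 members, 10 clock genes, 5 leaf markers and 8 genes of the other lists (rows, in blocks). Red is above and blue below wild type. All 3 F1 libraries differed from the other 6 in TOC1, LHY and LHCB1.1, and F1 library 3 was paler than libraries 1 and 2 for SEN1, DIN10, ASN1, DIN4, BGAL4 and LKR/SDH.

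Photosynthetic marker transcripts went the other way in F1. All 5 leaf markers were called lower in F1 than in wild type, beside 9.66% of all tested loci. The summed level of the 5 ran from 5770 to 11672 CPM in ddm1, from 1323 to 1871 in F1 and from 6857 to 12042 in wild type. LHCB1.1, an antenna protein of photosystem II, was at 24.2 ± 5.84 CPM in F1 and 1265 ± 625 in wild type (SD, n = 3; log2 change -5.71 ± 0.75 SE, adjusted p = 0.000782), and RCA, which activates Rubisco, at 990 ± 111 and 5347 ± 431 CPM (log2 change -2.43 ± 0.25 SE, adjusted p = 0.000154). RBCS1A, at 404 ± 179 and 2051 ± 1153 CPM, and CA1, at 13.1 ± 4.27 and 373 ± 309 CPM, had larger spread (adjusted p = 0.0324 and 0.0136). The RBCS1A call was lost without wild-type library 1 or 2 or F1 library 1 or 2 (adjusted p = 0.0743 to 0.116), and the CA1 call without F1 library 1 or 2 (adjusted p = 0.0575 and 0.0584). Called markers numbered 2 without F1 library 1 or 2 and 3 without wild-type library 1 or 2.

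Markers of root, flower and seed tissue summed to 17.1 to 21.7 CPM in ddm1, 9.71 to 16.7 in F1 and 12.5 to 29.1 in wild type over 8 genes. SCR and SHR, the most abundant of them, were at 10.2 ± 0.606 and 4.98 ± 0.914 CPM in ddm1, 8.24 ± 2.06 and 2.84 ± 0.433 in F1, and 11.7 ± 1.84 and 4.32 ± 1.98 in wild type. Only 4 of the 8 had enough counts for the edgeR fit, and 0 were called in any comparison (at most 1 at an unadjusted p under 0.05). DESeq2 called 1 gene of the list, lower in F1 than in wild type. All 4 fitted genes had F1 estimates below wild type, and 2 had every ddm1 library above every F1 library (20.9% of tested loci). The part of differing tissue in the results was not tested.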

How the data were processed

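The authors deposited a kallisto 0.46.0 table per library, with estimated counts and TPM for 33602 loci, per the file headers. Its version is from the submitters' processing notes, which also list, with no role, the build TAIR10, STAR, deepTools, R 3.6.1, R 3.5.1 and DESeq2 1.22.2. The sources used here give neither the index nor its fragment length or strand options. Estimated counts were rounded and tested with edgeR 4.0.16 in R 4.3.3 (quasi-likelihood F test, robust dispersions, TMM, filterByExpr), all 9 libraries in 1 fit, Benjamini-Hochberg adjustment over 18216 loci, adjusted p under 0.05 as a call. Library sizes for CPM are those of the loci kept by the filter. SE was taken from the F statistic. The step was tested on simulated data. Libraries of a group differed by a chi-square per gene of 20.4 or more. Alternatives were DESeq2 1.42.0, RLE factors, no filter, no organelle loci, 2 groups only, a replicate block and each library left out. Floors of 3 counts cover counting error only.

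The members and gene lists were chosen with earlier results of these data known. Besides the members, the text names up to 4 called genes per list by size of change, or the 2 most abundant where none was called, and the 10 loci most alike. Genes named beyond this rule, such as those listed by direction in a list and SAG12, were chosen after their values were seen.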

Additional observations from a re-analysis of the deposited data

Results flagged for a closer look

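In 2 genes of the starvation list, STP1 and GDH2, every F1 library lay above and every ddm1 library below all wild-type libraries. Only the listed genes were searched for this pattern, and its share over all tested loci was not counted. Taken singly, 25.6% of tested loci had every F1 library above wild type and 5.6% every ddm1 library below. Both genes were picked by this separation, so their fitted differences describe them and are no test of the pattern. STP1, a sugar transporter, was at 39.4, 62.6 and 45.7 CPM in ddm1, 405, 528 and 138 CPM in F1, and 113, 79.1 and 118 CPM in wild type. Its log2 fold change was 1.79 (SE 0.45) in F1 and -1.07 (SE 0.45) in ddm1 against wild type, and -2.86 (SE 0.47) in ddm1 against F1.

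GDH2, a glutamate dehydrogenase subunit, was at 3.98, 4.11 and 3.51 CPM in ddm1, 35.4, 21.8 and 8.23 CPM in F1, and 7.04, 5.70 and 7.39 CPM in wild type. Its log2 fold change was 1.70 (SE 0.43) in F1 and -0.79 (SE 0.44) in ddm1 against wild type, and -2.49 (SE 0.45) in ddm1 against F1. Neither gene was called in ddm1 against wild type (edgeR adjusted p = 0.318 and 0.538). The F1 against wild-type calls of both (adjusted p = 0.0214 and 0.0217) were lost without any 1 wild-type library or without F1 library 1 or 2 (adjusted p = 0.0518 to 0.095).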

How the results depend on the processing

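Of the pathway list genes, 45 were called in F1 against wild type and 43 in ddm1 against F1, and DESeq2, RLE factors, no filter, no organelle loci and 2-group fits gave 37 to 47 and 35 to 54. In ddm1 against wild type the 2 calls became 4 with DESeq2 and 1 without a filter on low counts, with only the 2 groups compared and with the replicate block. With each library left out, the calls numbered 1 to 2 in ddm1 against wild type, 21 to 51 in F1 against wild type and 18 to 55 in ddm1 against F1. Of the calls, 20 of 45 in F1 against wild type and 17 of 43 in ddm1 against F1 were kept in all 9 of those fits. The replicate numbers did not pair the libraries, since same-numbered libraries correlated at -0.43 to 0.20 in their deviations from the group means and differently numbered ones at -0.26 to 0.44. With the replicate block the calls numbered 30 in F1 against wild type and 24 in ddm1 against F1. The ELF4 call in F1 against wild type was also lost with it (adjusted p = 0.0683). The 4 members called in F1 against wild type numbered 4 or 5 under every alternative, and the 6 lower in ddm1 against F1 numbered 4 to 6, with 4 under the replicate block. In ddm1 against wild type 0 members were called, except without ddm1 library 3, where 1 (ASN1) was lower. Since the members were picked with earlier results of these libraries in view, these counts only describe them. No member or named gene with a call changed direction under any alternative. Low counts limit DIN2, ABI5 and ASN1 in ddm1, and 3 libraries a group limit all tests.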

Other observations

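In wild-type library 2, ddm1 library 3 and F1 library 3, photosynthetic marker RNA that was high for the group stood beside low levels of some of the 10 genes and not of others. Wild-type library 2 had the highest RBCS1A and LHCB1.1 levels of its group, at 3159 and 1925 CPM in turn, and the lowest SEN1, ORE1, NAP, SGR1 and SAG13, but the highest WRKY6 (3.62 CPM), while its DIN10, ASN1 and DIN4 levels lay between those of the other wild-type libraries. Likewise ddm1 library 3 had 3178 and 2303 CPM of these markers, where libraries 1 and 2 had 892 and 816 CPM of RBCS1A and 462 and 585 CPM of LHCB1.1, and the lowest SEN1, WRKY6, NAP, SGR1, ORE1 and SAG13 of its group. DIN10, ASN1 and DIN4 were instead highest in library 3 among the ddm1 libraries, at 44.1, 3.10 and 10.7 CPM. F1 library 3 had the highest summed leaf markers of its group, 1871 CPM against 1323 and 1487 in libraries 1 and 2. It had the lowest SEN1, ORE1, NAP, SGR1 and SAG13 of its group, and also the lowest DIN10, ASN1 and DIN4. Its WRKY6 level lay between those of the other F1 libraries. No test was made of these within-group orders, which rest on 3 libraries each.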
